A study of Mus musculus with 20 samples.

Results

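The smooth muscle contractile genes described here are 10 genes, followed in mouse aorta 4 h after proton or gamma radiation: Acta2, Actg2, Tagln, Cnn1, Lmod1, Smtn, Myh11, Myl9, Mylk and Des. They were found by gene symbol among the 21078 genes of a table of sense-strand read counts, where all 10 were present. All 10 also passed the minimum mean count of 5 over the mice, which left 13124 genes for testing.

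RNA sequencing covered the aorta of 20 male wildtype C57BL/6 mice aged 10 to 12 weeks, 10 of them exposed to protons and 10 to gamma rays from caesium. Whole-body doses were 0, 5, 10, 25, 50, 75, 100, 125, 150 and 200 cGy, and each dose of each radiation type was given to 1 mouse, so a dose has no replicate and the comparisons rest on trends over 10 doses. The mice at 0 cGy were handled like the irradiated mice, and the labels place the treatment of all mice on the same day. The question was whether the contractile genes held their share of the aortic RNA over the doses of either radiation type.

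Vascular smooth muscle shortens when myosin heads pull on actin filaments. Calcium bound to calmodulin switches on myosin light chain kinase, which phosphorylates the regulatory light chain, and myosin phosphatase reverses this step. The genes of this apparatus are largely shared targets of serum response factor and its cofactor myocardin, and they mark the contractile state of the cells of the arterial wall. In bulk RNA, fewer smooth muscle cells and less RNA per cell cannot be told apart.

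Total deposited counts were between 6051657 and 6058006 per mouse, because the authors had resampled the libraries to a common depth, and 3 counts correspond to a share of 4.95e-05% of a library. No intervals from counting are given, since they would cover counting error only and not the differences between mice. A single library stood apart. The proton mouse at 75 cGy held more RNA of fat and of striated muscle than any other mouse, and values are therefore given with and without it. A second difference followed dose. Across 9702 genes, which do not count as independent replicates, a gene's deviation from its mean correlated with its GC content at -0.40 to -0.35 in the 4 mice given 150 or 200 cGy and -0.018 to 0.28 in the other 16. High dose and this property of the libraries cannot be told apart.

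The 10 genes together held a large and mostly even share of the library. After proton radiation their summed share was lowest at 3.18% (75 cGy), had a median of 5.66% and was highest at 6.32% (100 cGy). Without the mouse at 75 cGy it ranged from 5.35% to 6.32%, with a mean of 5.71% ± 0.27 (SD, n = 9). After gamma radiation the share was lowest at 4.66% (100 cGy), had a median of 5.79% and was highest at 6.35% (50 cGy), with a mean of 5.69% ± 0.49 (SD, n = 10). Without the mouse at 75 cGy the proton range lay inside the gamma range. Acta2 alone made up between 37.1% and 44.9% of the counts of the 10 genes, with a median of 41.8% over 20 mice.

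**Figure D1:**
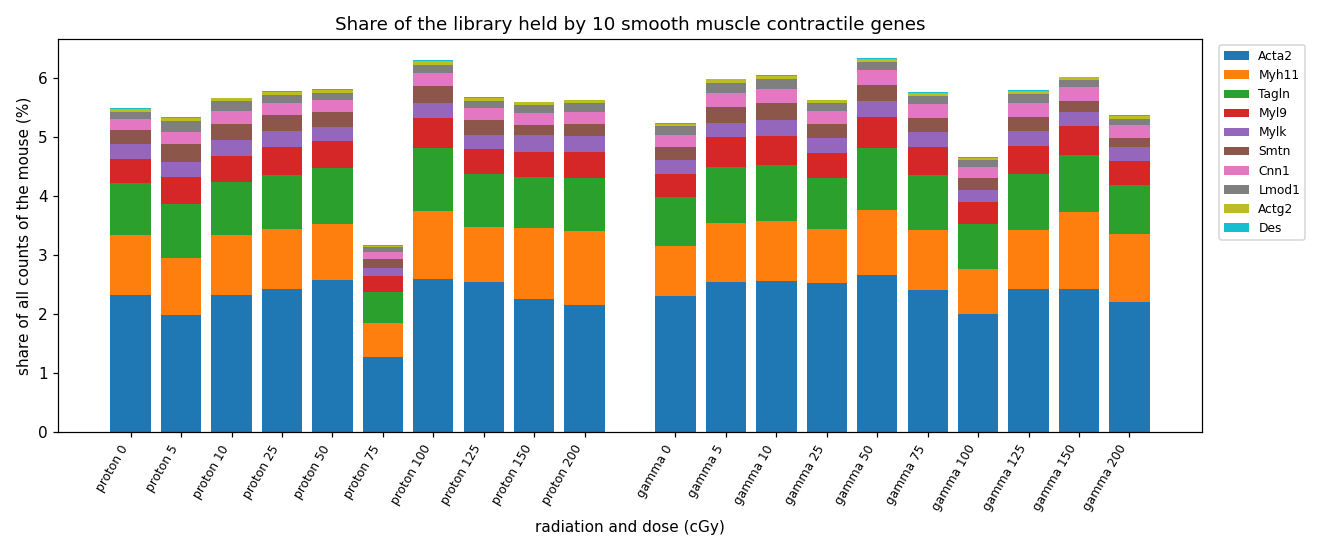
Stacked bars give the share of all counts of a mouse (%) held by each of the 10 contractile genes, with 1 bar per mouse ordered by radiation type and dose. The proton mouse at 75 cGy stands at 3.18% and the gamma mouse at 100 cGy at 4.66%, and the other 18 mice lie above both.

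Compared per length of the longest protein-coding transcript, the level of Acta2 was the highest, with a median of 82251 counts per kb over 20 mice. Tagln followed with 34860 counts per kb, Myl9 with 23991, Myh11 with 9208, Cnn1 with 5514 and Smtn with 4391. The lowest levels per kb were those of Actg2 with 2267, Lmod1 with 2058, Mylk with 1906 and Des with 259. Most neighbours in this order kept it in all 20 mice. The exceptions were Actg2 over Lmod1, which held in 12 of 20 mice, and Lmod1 over Mylk, which held in 14 of 20. The ranges over mice were wholly apart between Acta2 and Tagln, between Myl9 and Myh11 and between Mylk and Des, and overlapped between the other neighbours. The actin genes share long stretches of sequence, and how reads common to them were counted is not given in the sources used here, so the level of Actg2 beside Acta2 is uncertain.

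Acta2 (chr19:34315580-34329826, minus strand, mm9) encodes smooth muscle alpha actin, the main actin of the thin filament. After proton radiation its counts were lowest at 77335 (75 cGy), with a median of 140932 and a highest value of 157599 (100 cGy). After gamma radiation they were lowest at 121361 (100 cGy), with a median of 146818 and a highest value of 161018 (50 cGy). Without the proton mouse at 75 cGy the lowest proton count was 120155, and the proton and gamma ranges nearly coincided. Actg2 (chr6:83462899-83486259, minus strand), the gamma actin best known from visceral smooth muscle, was counted 1811 to 3760 times after proton radiation (median 2931) and 2264 to 3639 times after gamma radiation (median 3141). The lowest Actg2 count of each radiation type belonged to the same mouse as the lowest Acta2 count.

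Tagln (chr9:45737711-45744141, minus strand) encodes transgelin, a small protein that binds and bundles actin. Its counts ran from 31880 over a median of 55023.5 to 63840 after proton radiation and from 46562 over a median of 56959 to 63061 after gamma radiation. Cnn1 (chr9:21903725-21914074, plus strand) encodes calponin, which binds actin and damps the myosin ATPase. It was counted 6933 to 13932 times after proton radiation (median 12520) and 11536 to 15149 times after gamma radiation (median 14156.5). In both genes the lowest counts again fell on the proton mouse at 75 cGy and the gamma mouse at 100 cGy. Lmod1 (chr1:137221384-137264642, plus strand) encodes leiomodin, which nucleates actin filaments. Its counts of 4970 to 11719 after proton radiation (median 7892) and 6841 to 10756 after gamma radiation (median 8316) were highest at 5 cGy in both radiation types, with 11719 and 10756. Smtn (chr11:3417526-3440615, minus strand) encodes smoothelin, a protein bound to actin stress fibres of contractile cells. It was counted 9084 to 17901 times after proton radiation (median 15251) and 9742 to 17304 times after gamma radiation (median 14370.5), and its lowest gamma count was at 200 cGy.

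Myh11 (chr16:14194620-14291501, minus strand) encodes the smooth muscle myosin heavy chain, the motor of the thick filament. Its counts ran from 34914 over a median of 61613 to 75740 after proton radiation and from 46404 over a median of 61035 to 79989 after gamma radiation. In contrast to the other 9 genes, the highest Myh11 count of each type was at 150 or 200 cGy. Myl9 (chr2:156601156-156607394, plus strand) encodes the regulatory light chain, with 16111 to 30909 counts after proton radiation (median 26579.5) and 22413 to 32171 after gamma radiation (median 28968). Mylk (chr16:34745296-35002520, plus strand), the kinase that phosphorylates this light chain, had 8499 to 16647 counts (median 15775.5) and 12153 to 16509 counts (median 14745). Without the proton mouse at 75 cGy, Mylk had the smallest spread of the 10 genes among proton mice, from 14273 to 16647. Des (chr1:75356904-75365154, plus strand) encodes desmin, an intermediate filament protein of smooth and striated muscle. It was counted 491 to 1086 times after proton radiation (median 789.5) and 574 to 1033 times after gamma radiation (median 752.5), and its lowest counts were at 150 and 200 cGy.

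**Figure D2:**
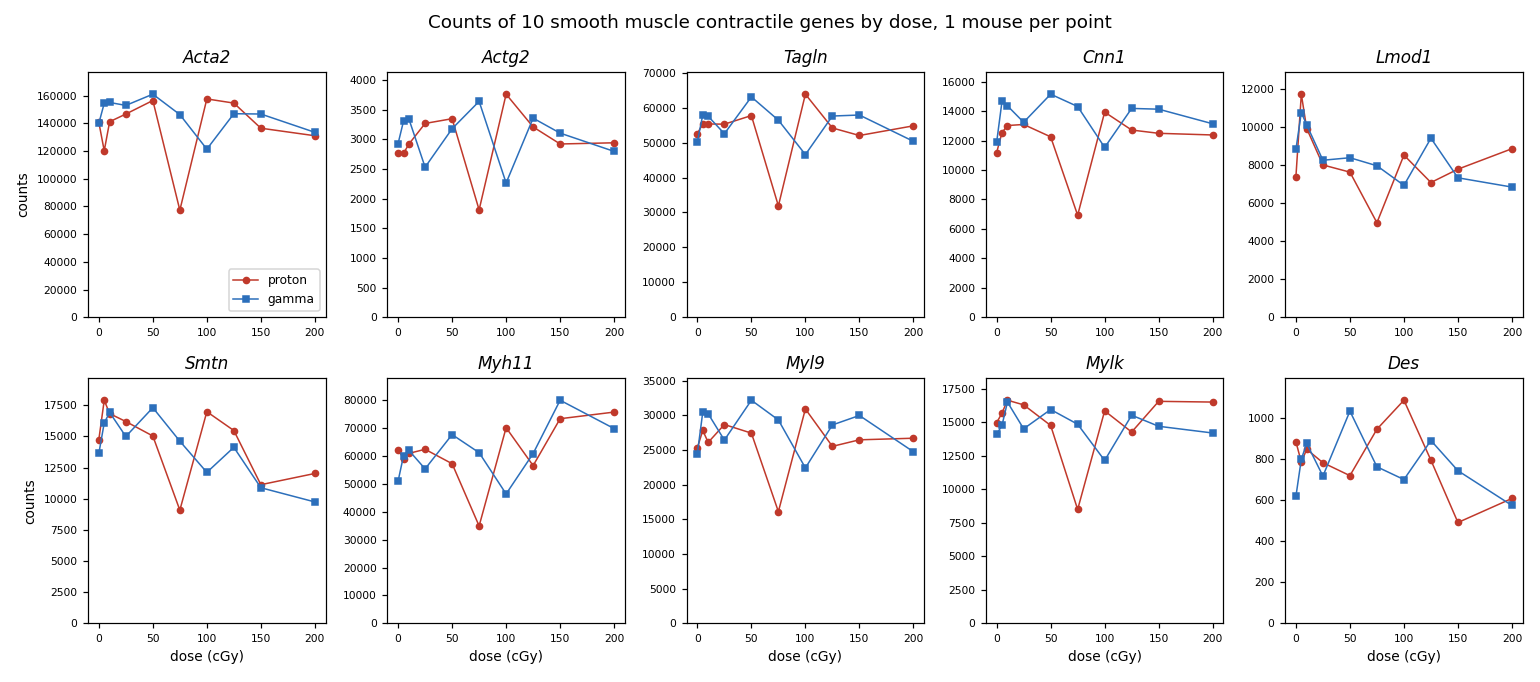
Counts of each of the 10 genes are plotted against dose (cGy), with 1 point per mouse, circles for proton and squares for gamma radiation, and a vertical axis that starts at 0. The lowest point of 9 genes is at 75 cGy of protons, while Des there has 945 counts.

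Stability over doses was measured as the SD of the log2 share over the mice of 1 radiation type. After proton radiation without the mouse at 75 cGy, the SD of the 10 genes had a median of 0.14 (n = 9 mice), from 0.081 for Mylk to 0.33 for Des, and the median over 9817 genes whose mean count was 50 or more was 0.18. Of the contractile genes, 7 of 10 lay under that median. With the mouse at 75 cGy, the median SD of the 10 genes was 0.30 and that of the 9817 genes 0.21, and 0 of the 10 lay under it. Among gamma mice the median SD was 0.19 (n = 10 mice), from 0.12 for Acta2 to 0.27 for Smtn, against 0.18 for the 9817 genes, and 5 of the 10 lay under it. The 9817 genes were not matched to the 10 in abundance, and counting error adds more to the SD of scarcer genes. A lower SD therefore does not show that the contractile genes were steadier than genes of like abundance.

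Dose slopes of the contractile genes did not pass the threshold for either radiation type. Slopes in log2 per 100 cGy came from edgeR's quasi-likelihood test, in which both radiation types had their own intercept and slope, with Benjamini-Hochberg adjustment over all 13124 genes and a threshold of 0.1. After proton radiation 0 of the 10 genes were called in either direction, where 1.6% of all genes tested were called upward and 0.16% downward. Their slopes ran from -0.22 for Smtn to 0.16 for Myh11 with a median of 0.013, against a median of 0.0018 over all genes tested, and the smallest adjusted p was 0.411. After gamma radiation 0 of the 10 genes were called, where 5.44% of all genes were called upward and 2.21% downward. Their slopes ran from -0.34 for Smtn to 0.15 for Myh11 with a median of -0.060, against 0.013 over all genes. At an unadjusted p under 0.05 there were 0 of the 10 genes for proton and 1 for gamma radiation, where 13.3% and 18.4% of all genes had one. DESeq2 called 0 of them for proton radiation, where it called 2.03% of all genes with an adjusted p upward and 0.428% downward. For gamma radiation it called 1, Smtn, downward, where it called 6.53% of all genes upward and 4.5% downward, so 1 of 10 is near the background.

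Smtn was the gene nearest to the threshold. Its gamma slope was -0.34 (SE 0.12, adjusted p = 0.101 in edgeR), and its proton slope was -0.22 (SE 0.11, adjusted p = 0.411). Without the proton mouse at 75 cGy the gamma slope was -0.35 (SE 0.085) with an adjusted p of 0.0193 in edgeR, so the call was made in its absence. The call was also made without the proton mouse at 100 cGy (adjusted p = 0.0944) or 125 cGy (0.0999) and without the gamma mouse at 0 cGy (0.0775) or 125 cGy (0.0871). Without the gamma mouse at 150 or 200 cGy the adjusted p was 0.298 or 0.471, with slopes of -0.32 and -0.30. With a correction for GC content and length the gamma slope of Smtn was -0.19 (adjusted p = 0.338 in edgeR) and its proton slope -0.091. Lmod1 had a gamma slope of -0.24 (SE 0.13, adjusted p = 0.341 in edgeR). Myh11 had slopes of 0.16 (SE 0.12) after proton and 0.15 (SE 0.12) after gamma radiation, with adjusted p-values of 0.664 and 0.607 in edgeR. These values depended on single mice: the proton slope was 0.075 without the mouse at 200 cGy and the gamma slope 0.088 without the mouse at 150 cGy. Over 0 to 125 cGy and without the proton mouse at 75 cGy, the gamma slope of Smtn was -0.21 (adjusted p = 0.572 in edgeR) and that of Myh11 was -0.055 (adjusted p = 0.935), which is the opposite sign to its slope over all doses.

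**Figure D3:**
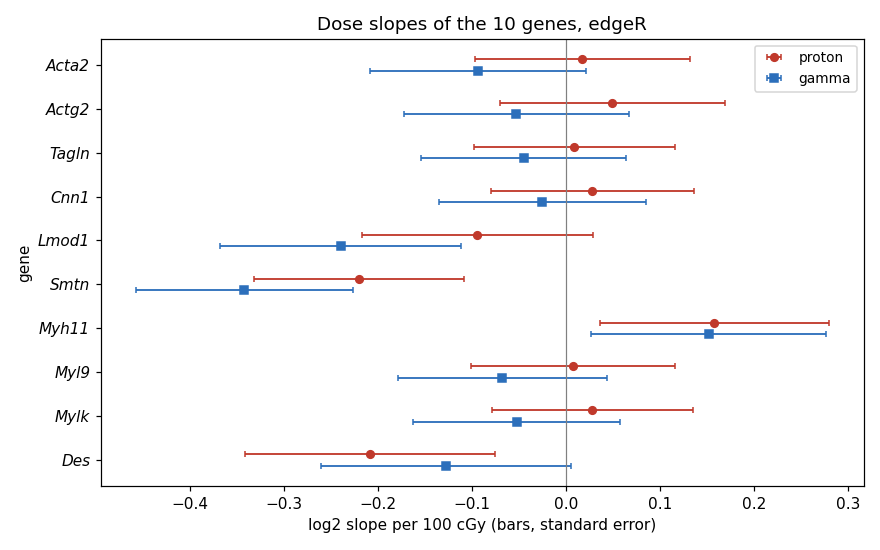
Points give the fitted log2 slope per 100 cGy of each of the 10 genes and bars its standard error, with circles for proton and squares for gamma radiation. Smtn lies lowest, at -0.22 and -0.34, and Myh11 highest, at 0.16 and 0.15.

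The trend test, an exact one-sided permutation of dose orders with Spearman's rank correlation as its statistic, made no call among the 10 genes either. The share of all genes called was 0.198% upward and 0% downward after proton radiation, and 1.9% upward and 0.411% downward after gamma radiation. Lmod1 had the lowest rank correlation after gamma radiation, -0.72, with an exact p of 0.0117 and an adjusted p of 0.310. Smtn followed with -0.64 and an exact p of 0.0272, adjusted to 0.436. The highest was that of Myh11 after gamma radiation, 0.53, with an exact p of 0.0616 and an adjusted p of 0.374. Without adjustment, a downward p under 0.05 was found for 2 of the 10 genes in gamma and 0 in proton mice, where 8.86% and 5.47% of all genes had one. An upward p under 0.05 was found for 0 of the 10 genes in either radiation type, where 14.5% of all genes had one in gamma and 7.12% in proton mice.

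The radiation types were compared in 2 ways. The difference between the proton and the gamma slope was tested in the same edgeR model, and 0 of the 10 genes were called, as were 0% of all genes. The differences, proton minus gamma, ran from -0.080 for Des to 0.15 for Lmod1 in log2 per 100 cGy with standard errors between 0.15 and 0.19, and 9 of 10 were above 0. At matched dose, with dose as a block, 0 of the 10 genes and 0% of all genes were called. Cnn1 differed most, with a log2 difference of -0.21 (SE 0.10, adjusted p = 0.661 in edgeR), lower after proton radiation. Without the proton mouse at 75 cGy the 10 matched differences ran from -0.12 for Cnn1 to 0.10 for Smtn and 5 of 10 were below 0. No gene of the 10 had an unadjusted p under 0.05 in either comparison, where 1.94% of all genes had one for the slope difference and 7.86% at matched dose. DESeq2 called 0 of the 10 in both, and of all genes 0% for the slope difference and 0.678% at matched dose. These results set limits by their standard errors and do not show that the radiation types act alike.

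The fall in the proton mouse at 75 cGy took in 9 of the 10 genes. Each of these 9 had its lowest share of 20 mice there, which was so for 16.2% of all genes tested. Mylk stood at 53.7% of the median of the other 9 proton mice, Acta2 at 54.8%, Cnn1 at 55.3%, Myh11 at 56.1%, Tagln at 57.7%, Smtn at 58.8%, Myl9 at 60.4%, Actg2 at 61.6% and Lmod1 at 62.2%. The decreases thus lay in a narrow band. The median log2 ratio of the 10 genes was -0.78, against 0.018 for all genes tested. With TMM scaling the ratios of the 9 genes ran from -0.94 for Mylk to -0.71 for Lmod1. There is 1 mouse at this dose, so the difference has no replicate check and no p is given.

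Des did not share this fall. It was counted 945 times in the proton mouse at 75 cGy, 120% of the median of the other 9 proton mice and above 17 of the other 19 mice. Within the counts of the 10 genes, Des made up 0.491% in this mouse and 0.145% to 0.284% in the other 19. The proportions among the remaining genes were those of the other mice: each of the 9 others made up a part of the 10 genes' counts that lay inside the range of the other 19 mice. Acta2, for example, made up 40.2% there.

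Markers of other cell types were high in the same library. The 8 white fat genes, among them Fabp4 and Lpl, which bind and release fatty acids, were all highest there, with a summed share of 0.943% against 0.0646% to 0.347% in the other 19 mice. Brown fat genes, led by the uncoupling protein Ucp1 and by Cidea, were at 0.253% against 0.0160% to 0.0988%, and 7 of 8 were highest there. Of the striated muscle list 6 of 9 genes tested were highest there, and its summed share was 0.300% against 0.00296% to 0.00830%. Myh6, the cardiac alpha myosin heavy chain, had 6721 counts against 0 to 105, and the cardiac actin Actc1 had 3887 against 21 to 131. A further 3 cardiac genes, chosen after their values were seen, moved with them: Tnnt2 with 3013 counts against 43 to 106, Mb with 2664 against 1 to 30 and Tnni3 with 1423 against 12 to 42. The skeletal myosin genes Myh2 and Myh4 were at 0 in this library and Myh1 at 1, but the median of each over the other 19 mice was also 0. Of the same list, Ckm was highest in this mouse too, with 404 counts against 48 to 110. Myh7 with 27 against 0 to 37, Acta1 with 11 against 0 to 30 and Tnnt3 with 19 against 10 to 28 lay inside the range. Together the fat and striated muscle lists held 1.497% of its counts.

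A further 2 lists of low counts also lay above the range of the 19 mice. The mesothelial list, with Upk3b and Msln, summed to 495 counts against 0 to 129, a share of 0.00818% against 0% to 0.00213%, and the nerve sheath list, with Mbp, was at 0.00527% against 0.000710% to 0.00244%. The sums of the remaining lists lay inside the range. Endothelial genes, with Pecam1 and Vwf, were at 0.128% against 0.0392% to 0.137%, but 3 of 8 were highest in this mouse: Kdr with 534 counts against 31 to 168, Cdh5 with 935 against 158 to 515 and Emcn with 171 against 25 to 120, all 3 named after their values were seen. The sums were, for fibroblast genes, with Col1a2 and Col1a1, 0.751% against 0.414% to 1.17% and, for macrophage genes, with Lyz2 and Csf1r, 0.0577% against 0.00953% to 0.0617%. Red blood cell genes, with Hbb-b1 and Hba-a1, were at 0.156% against 0.00221% to 0.228%. The lymphocyte list, with Cd79a, summed to 35 counts against 1 to 60. The part of these markers in the fall of the contractile genes was not tested.

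**Figure D4:**
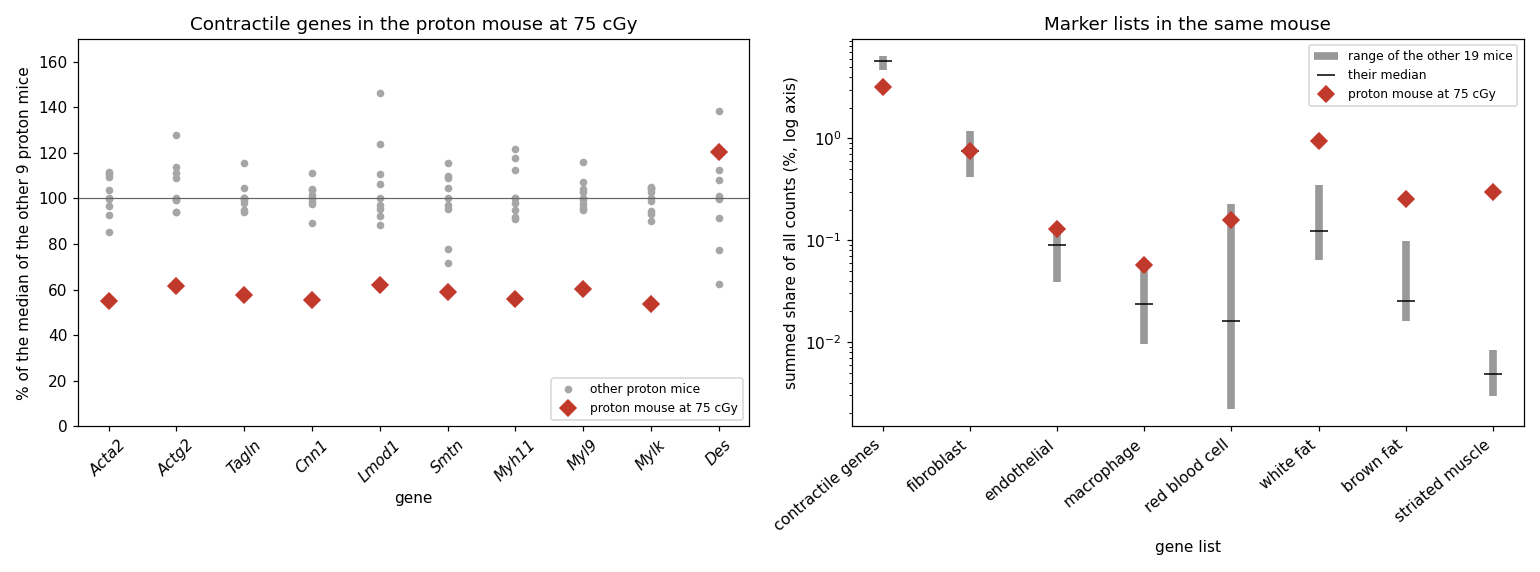
Left, each gene's share in the proton mouse at 75 cGy (diamonds) and in the other 9 proton mice (grey points), in % of the median of those 9; right, the summed share (%, log axis) of marker lists in this mouse against the range (bar) and median (tick) of the other 19 mice. Of the contractile genes, 9 lie between 53.7% and 62.2% and Des at 120%, while of the lists plotted those of white fat, brown fat and striated muscle lie above the range of the other mice. The mesothelial, nerve sheath and lymphocyte lists are not plotted.

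The gamma mouse at 100 cGy was a milder case. In it 7 of the 10 genes had their lowest share of the 10 gamma mice, where 9.04% of all genes tested did, and the exceptions were Smtn, Lmod1 and Des. The 10 genes stood between 71.3% for Actg2 and 91.9% for Des of the median of the other 9 gamma mice. In the same library the white fat list was at 0.347%, against 0.0646% to 0.160% in the other gamma mice, and the brown fat list at 0.0988%, against 0.0160% to 0.0263%. Its striated muscle list was at 0.00296%, the lowest of the gamma mice, and Myh6 at 0. Another 3 lists were highest of the gamma mice there: red blood cell genes at 0.228% against up to 0.184%, macrophage genes at 0.0617% against up to 0.0572% and mesothelial genes at 0.00213% against up to 0.00154%. The part of these markers in this decrease was not tested.

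At the highest doses 3 genes stood apart, in a comparison of 150 and 200 cGy with 0 to 125 cGy that was chosen after the data were seen. Smtn had 9742 to 12026 counts in the 4 mice at 150 and 200 cGy and 12114 to 17901 in the 15 mice at lower doses, without the proton mouse at 75 cGy, which had 9084. The groups of 4 and 15 did not overlap, and 3.69% of all genes lay below the 15 mice in this way. Myh11 had 69823 to 79989 counts at the high doses and 46404 to 70142 in the 15 mice, an overlap of only the proton mouse at 100 cGy with the gamma mouse at 200 cGy. Des had 491 to 743 counts against 618 to 1086, with more overlap.

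In edgeR, with radiation type as a covariate, Smtn was lower at 150 and 200 cGy by a log2 difference of -0.45 (SE 0.13, adjusted p = 0.0149) and Des by -0.44 (SE 0.13, adjusted p = 0.0141), while Myh11 was higher by 0.38 (SE 0.12, adjusted p = 0.0303). The other 7 genes were not called, and over all genes 16.6% were called upward and 11.3% downward, so 1 and 2 of 10 are close to the background. Without the proton mouse at 75 cGy all 3 calls remained. Within proton mice only Des was called, with -0.61 (adjusted p = 0.0405), and within gamma mice only Smtn, with -0.56 (adjusted p = 0.0184). With a correction for GC content and length, Smtn was at -0.17 (adjusted p = 0.364) and Des at -0.26 (adjusted p = 0.210), and both calls were lost, while Myh11 was at 0.30 (adjusted p = 0.0943). The longest transcript of Smtn has a GC content of 60.1%, the highest of the 10 genes, that of Des 56.5% and that of Myh11 53.2%. Among the uncalled genes, Myl9 at 56.6% had an uncorrected log2 difference of 0.013. Lmod1 at 53.5% had -0.12, Mylk at 53.6% had 0.089 and Acta2, the lowest at 49.0%, had -0.037. The part of GC content in these differences was not tested.

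The ratio of Myh11 to Smtn counts puts these values in 1 number per mouse. The pair was taken because the values above were known, and the counts are not corrected for GC content, so the ratio is a description and adds no evidence. It was 6.30 to 7.35 in the 4 mice at 150 and 200 cGy and 3.30 to 4.31 in the other 16 mice, among them the proton mouse at 75 cGy with 3.84. The proton and gamma mice of the same dose lay on the same side of this gap.

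**Figure D5:**
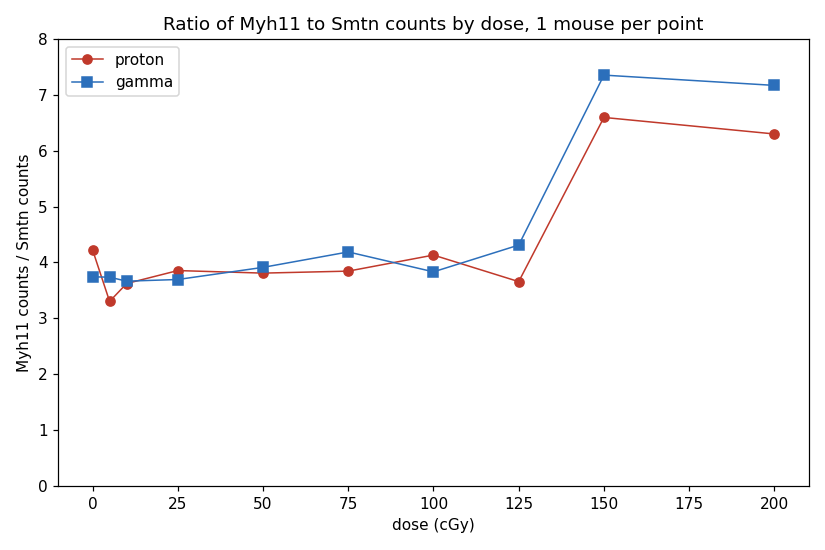
The ratio of Myh11 counts to Smtn counts is plotted against dose (cGy), with 1 point per mouse, circles for proton and squares for gamma radiation. Points at 150 and 200 cGy lie between 6.30 and 7.35 and all others between 3.30 and 4.31.

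Contractile genes varied together over mice in part. Over 20 mice the Pearson correlation of log2(CPM + 1) had a median of 0.68 over the 45 pairs of the 10 genes. It was highest for Tagln and Myl9, 0.97, and lowest for Myh11 and Des, -0.21. Over the 19 mice without the proton mouse at 75 cGy the median was 0.48, the highest again Tagln and Myl9 with 0.93, and the lowest Myh11 and Smtn with -0.31. The mice share dose steps and library properties, so these values are descriptive.

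Outside the contractile lists, the gene most like the mean of the 10 genes over 20 mice was Efhd1 (r = 0.96), which encodes a mitochondrial calcium-binding protein. It was followed by the receptor tyrosine kinase Axl (0.94), the inositol phosphatase Inpp5a (0.94), Myadm (0.92) and Sh3bgr (0.92). Efhd1 had 1447 counts in the proton mouse at 75 cGy and 2155 to 2727 in the others. Over 19 mice without this mouse the list was Efhd1 (0.88), Dctn6 (0.84), Plb1 (0.83), Ebf4 (0.82) and Axl (0.81), so Efhd1 and Axl were in both.

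Sequence in front of 2 of the genes is shown because the CArG box, the motif that serum response factor binds, is the element through which contractile genes are best known to be controlled together. RefSeq entries on GRCm38.p6 were matched by symbol for 7 of the 10 genes and not for Myh11, Tagln and Actg2. Searched in the 250 bases before the annotated start, the motif reads the same on both strands, and it was taken as complete or with 1 departing letter among its 6 central positions. Myl9 held 1 complete box, and 1.47% of the 32851 promoters of the table hold one. Acta2 and Myl9 each held 2 boxes complete or with 1 departure, where 8.59% of all promoters hold at least 1. No such letters were in this window of Cnn1, Smtn, Lmod1, Mylk or Des. The boxes, in capitals, begin 84 and 34 bases before the start of Acta2 (chr19:34255378-34255477, minus strand) and 161 and 99 bases before that of Myl9 (chr2:156775283-156775394, plus strand). Only the first box of Myl9 is complete.
Acta2: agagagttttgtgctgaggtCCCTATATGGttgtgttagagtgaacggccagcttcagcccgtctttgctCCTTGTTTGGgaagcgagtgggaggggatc
Myl9: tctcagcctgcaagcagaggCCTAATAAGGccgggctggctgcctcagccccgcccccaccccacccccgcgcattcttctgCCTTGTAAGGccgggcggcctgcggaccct

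Of 66 further genes of smooth muscle contraction in 7 lists, 65 were tested and Myl12a was not analysed here. After proton radiation 2 of the 65 rose and 0 fell, and after gamma radiation 8 rose and 3 fell, beside the shares of all genes given above for the edgeR slope. Their median slopes were 0.013 and -0.035 in log2 per 100 cGy, against 0.0018 and 0.013 over all genes. In the proton mouse at 75 cGy, 48 of the 65 had their lowest share of 20 mice, where 16.2% of all genes tested did. In the same mouse 3 of the 10 calcium handling genes had their highest share, as did 3372 of the 13124 genes tested.

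Upstream of the light chain, Prkg1, the cGMP-dependent kinase that mediates relaxation, rose in both radiation types, with slopes of 1.46 (SE 0.30, adjusted p = 0.0338 in edgeR) after proton and 1.30 (SE 0.31, adjusted p = 0.0284) after gamma radiation. Its counts were low, 11 to 29 in the 16 mice at 0 to 125 cGy and 89 to 120 in the 4 mice at 150 and 200 cGy. These groups did not overlap, and 6.8% of all genes lay above the 16 mice in this way. Each slope was lost without its own mouse at 150 or at 200 cGy, with adjusted p-values up to 0.636 after proton and 0.261 after gamma radiation. Ppp1r12a, the targeting subunit of myosin phosphatase, rose after gamma radiation by 0.53 per 100 cGy (adjusted p = 0.0778), with 1167 to 2166 counts up to 125 cGy and 3511 to 4151 above. Its proton slope was of the same size, 0.53, but was not called (adjusted p = 0.127 in edgeR). The calmodulin gene Calm3 fell by 0.20 after gamma radiation (adjusted p = 0.0920), and its proton slope was -0.10 (adjusted p = 0.555 in edgeR). Both calls depended on single mice: 12 of 20 fits that left out 1 mouse kept that of Ppp1r12a, with an adjusted p of up to 0.420, and 7 of 20 that of Calm3, with up to 0.578.

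Among the cofactors that drive these genes, Mkl2 rose by 0.36 (SE 0.068, adjusted p = 0.0173 in edgeR) after proton and by 0.30 (SE 0.069, adjusted p = 0.0253) after gamma radiation. It had 203 to 283 counts up to 125 cGy and 301 to 374 above. Myocd, which encodes myocardin, rose after gamma radiation by 1.05 (SE 0.26, adjusted p = 0.0357), with 110 to 361 counts up to 125 cGy and 395 to 903 above. Its proton slope was 0.74 and was not called (adjusted p = 0.219 in edgeR). Of the 4 genes in this list, Srf and Mkl1 sloped downward in both radiation types and were not called. The slopes of Srf were -0.083 after proton and -0.25 after gamma radiation, and those of Mkl1 -0.20 and -0.080. In Mkl2 and Myocd the high-dose mice did not overlap the 16 others, and 6.8% of all genes lay above in this way. The call of Mkl2 was lost without the proton mouse at 150 or 200 cGy in the one radiation type (adjusted p up to 0.399) and without the gamma mouse at 200 cGy in the other (0.287), and that of Myocd without the gamma mouse at 150 or 200 cGy (up to 0.199). The contractile genes were not called in these slopes, beside the shares of all genes given above, and their relation to these factors was not tested.

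Of 10 genes of calcium handling 3 rose after gamma radiation and 7 did not pass the threshold. Trpc1, a cation channel, rose by 0.51 (adjusted p = 0.00896 in edgeR), the voltage-gated channel Cacna1c by 0.45 (adjusted p = 0.0952) and the inositol trisphosphate receptor Itpr1 by 0.29 (adjusted p = 0.0994), the last 2 close to the threshold of 0.1. Their proton slopes were 0.27, 0.21 and 0.28 and were not called (adjusted p = 0.229, 0.601 and 0.181 in edgeR). In the thin filament list 2 genes fell after gamma radiation, the transgelin paralog Tagln2 by 0.34 (adjusted p = 0.0598) and the cytoplasmic actin Actg1 by 0.24 (adjusted p = 0.0981). Their proton slopes were -0.15 and -0.085 and were not called (adjusted p = 0.553 and 0.725 in edgeR). Leaving out 1 mouse in turn kept the call of Trpc1 in 19 of 20 fits, of Tagln2 in 17, of Cacna1c in 7, of Actg1 in 6 and of Itpr1 in 5, with adjusted p-values up to 0.132, 0.287, 0.355, 0.319 and 0.465, and these highest values came without the gamma mouse at 200 cGy, for Cacna1c at 150 cGy. The mice without which Tagln2 lost its call were the gamma mice at 5, 150 and 200 cGy. With the GC and length correction, the calls of Prkg1 in both radiation types, of Mkl2 after proton radiation and of Trpc1 and Myocd after gamma radiation were kept, and the other 7 calls named here were lost. Of these 7 the corrected slope was 0.50 for Ppp1r12a and 0.39 for Cacna1c, little changed, and -0.24 for Tagln2 and -0.19 for Actg1. It was 0.18 for Mkl2 after gamma radiation, 0.13 for Itpr1 and -0.067 for Calm3, less than the uncorrected slopes by over 1.5 times. No call named here was kept over 0 to 125 cGy alone.

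In the lists of other myosin chains and of intermediate filament and caveola genes, 0 genes were called for a slope of either radiation type. Of the most abundant, the light chain Myl6 had 9647 to 16493 counts over 20 mice, the heavy chain Myh10 2850 to 4931 up to 125 cGy and 6298 to 7598 above, the intermediate filament protein vimentin (Vim) 24475 to 47746 and the caveola protein Ptrf 6687 to 9559. In each of these the lowest count was that of the proton mouse at 75 cGy. Over the whole lists, 3 of 4 tested genes of the myosin chains had their lowest share there. Of the intermediate filament and caveola genes 3 of 6 did, where 16.2% of all genes tested did. The high-dose counts of Myh10 did not overlap those of the 16 others, and 6.8% of all genes lay above in this way.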

How the data were processed

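RNA of the aorta was sequenced in 20 mice, after library preparation with polyA selection. The authors aligned stranded paired reads of 100 bases with STAR 2.5.2a to mm9 and resampled the libraries with the PORT pipeline; the submitters' processing notes also name CASAVA 1.8.1. The deposited values are sense-strand read counts of each gene, and these counts were used without further scaling for shares. Resampling removes depth differences but not differences in GC content or tissue makeup. Samples were grouped by the radiation type and dose of their labels. All gene IDs were found in GENCODE M1, which is on the same assembly, and coordinates are from that annotation.

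Counts of the 13124 genes with a mean of at least 5 were tested with edgeR 4.0.16 (TMM, robust quasi-likelihood; R 4.3.3) for a dose slope in each radiation type, for their difference and, with dose as a block, for the radiation type. The rank trend was an exact permutation test. P-values were adjusted by Benjamini-Hochberg with a threshold of 0.1. With 1 mouse per dose and radiation type, no spread within a dose could be estimated. The edgeR p-values rest on departures of single mice from the fitted model, and those of the rank trend on reordering the doses. Alternatives were DESeq2 1.42.0, scaling without TMM, a minimum of 1 count or a mean of 50, a GC and length correction, other dose scales, 0 to 125 cGy only, each radiation type by itself and leaving out each mouse. The comparison of 150 and 200 cGy with lower doses and the fit to 0 to 125 cGy without the proton mouse at 75 cGy were added after the data were seen. The tests were tried on simulated data. The 10 genes and all gene lists were chosen with earlier results of these data known, so that counts over them are descriptions.

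The text names the 10 genes, from each contraction list those past the threshold in either slope (at most 4, or the 2 most abundant where none passed), the 2 most abundant genes of each cell type list and the 5 genes most like the mean of the 10 over 20 and over 19 mice. A few genes that this rule names are not reported here by name, though counts over lists include them. Antisense and intron counts were not analysed here. Python 3.11.15 with pandas 2.3.3 was used for summaries.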

Additional observations from a re-analysis of the deposited data

Results flagged for a closer look

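In the proton mouse at 75 cGy, 7 of the 10 contractile genes and their sum had a share so far below that of the other 9 proton mice that the gap to the nearest mouse exceeded the critical value of Dixon's test for 10 samples. The shares there were 1.28% of all counts for Acta2, 0.577% for Myh11, 0.527% for Tagln, 0.266% for Myl9, 0.140% for Mylk, 0.115% for Cnn1 and 0.0299% for Actg2, and the summed share was 3.18%. Of 22 groups tested, 8 were found, all in this mouse. Chance marks about 1 group in 20, but the fall in this mouse was known when the genes were chosen and the sum holds the 7 genes, so the 8 are a description and are not set against that rate.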

How the results depend on the processing

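Beside the 0 contractile genes with a gamma slope downward, 1 was called without TMM, with a minimum mean count of 50 and with DESeq2 (Smtn each time) and 2 with each radiation type by itself (Smtn and Lmod1). Leaving out 1 mouse gave 0 to 1, the call being Smtn without the proton mouse at 75, 100 or 125 cGy or the gamma mouse at 0 or 125 cGy. At 150 and 200 cGy, 0 genes were called higher within either radiation type and 1 lower within each, and 0 lower with the GC and length correction. The cause of these shifts was not tested. Without Acta2 the summed shares had medians of 3.35% after proton and 3.37% after gamma radiation. Every other count over the 10 genes stayed within 1.5 times its value.

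Slopes of single genes, uncalled in both fits except where said, changed sign as follows, in log2 per 100 cGy. Over 0 to 125 cGy: Myh11 -0.099 (proton) and -0.060 (gamma), Myl9 -0.067, Mylk -0.20, Tagln -0.034 and Cnn1 -0.034 (proton), Des 0.13 (proton) and 0.066 (gamma) and Prkg1 -0.12 (gamma, called over all doses). Also without the proton mouse at 75 cGy: Myh11 -0.055 and Prkg1 -0.11 (gamma), Mylk -0.088 (proton), Des 0.11 and 0.071. With the GC and length correction: Myl9 0.025, Tagln 0.0058 and Cnn1 0.0081 (gamma), Mylk -0.028 (proton). Proton slopes of Myl9 and Tagln were -0.0040 and -0.0021 without TMM, -0.0037 and -0.0017 at a mean of 50, -0.0020 and -4.7e-05 with DESeq2. On log2(dose + 1) they were -0.0020 and -0.0027, with Mylk -0.0075 (proton), Cnn1 0.0060 and Des 0.0061 (gamma), per unit of that scale. Leaving out 1 mouse gave proton slopes of -0.019 to 0.040 for Acta2, -0.026 to 0.024 for Myl9, -0.050 to 0.052 for Mylk, -0.028 to 0.018 for Tagln and -0.26 to 0.0091 for Lmod1, and gamma slopes of -0.22 to 0.0017 for Des.

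Replicate numbers are dose steps here. The replicate block left 0 contractile genes called for the slope difference, and the comparison at matched dose gave 0 with the block and 0 with no replicate block. Deviations of same-dose mice correlated between -0.58 and 0.63, with 6 of 10 pairs over 0.1, and 2 of 10 proton mice were most like the gamma mouse of their dose. As number and dose are the same, a pairing by number cannot be told apart from dose. A dose slope with dose as a block cannot be estimated, and the rank trend over 8 doses called 0 of the 10 contractile genes.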
